A study of Homo sapiens with 28 samples.

Results

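The regions described here are 659 hypoxia ZHX2 peaks, 2.04% of the 32343 on chromosomes 1 to 22 and X, that had a CTCF peak in hypoxia and neither a CTCF peak nor a ZHX2 peak in normoxia. The sites were chosen by measured values, namely the presence or absence of the authors' called ZHX2 and CTCF peaks in the 2 conditions: a site was counted when the ZHX2 peak shared at least 1 bp with a hypoxia CTCF peak and no base with a normoxia peak of either protein. The assay was chromatin immunoprecipitation followed by sequencing (ChIP-seq) in the established breast cancer line T47D, which is of luminal type. Antibodies to ZHX2, to CTCF and to histone H3 acetylated at lysine 27 (H3K27ac) were used in hypoxia, and the same 3 in normoxia, with no genotype given in the labels. A further pair of groups, both in hypoxia, was precipitated for Flag, with a ZHX2 form that the labels name PA and with wild-type (WT) ZHX2. Cells infected with lentivirus were selected with hygromycin or puromycin, per the labels' protocols. The promoter that drove the tagged proteins, their level beside endogenous ZHX2, and the oxygen level and length of the hypoxia treatment are not given in the sources used here. Each group had 2 samples and 1 peak list, with no value per sample, so no difference below has a replicate check or a test. Shares have 95% Wilson intervals. These cover only the counting error over peaks, and neighbouring peaks are not independent.

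ZHX2 is a nuclear protein with zinc fingers and homeodomains that is best known as a transcriptional regulator, and in kidney cancer cells as a target of the oxygen-sensing VHL ubiquitin ligase. CTCF binds a long DNA motif through its zinc fingers, stops cohesin at the anchors of chromatin loops and also occupies many promoters. H3K27ac marks active promoters and enhancers. The line's identity could be checked against marker genes only through H3K27ac. In hypoxia 12 of 12 luminal marker genes had such a peak at a gene end, against 2 of 6 basal or myoepithelial and 2 of 6 immune or stromal ones, and KRT5, KRT14, TP63 and PTPRC had none. Throughout, a gene end is either the start or the far end of a gene.

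The promoter windows of 7 genes with a site are printed, each touched by a site. The windows were not cut to the peaks, so a marked motif can lie beside the ZHX2 peak. The CTCF core in the CIAO2B window does so, as the ZHX2 peak there spans 66934196 to 66934573 on chromosome 16. MXI1, ETAA1, WDR43 and BUB1B were among the 15 gene-end sites with the highest ZHX2 fold, CIAO2B and TBCB are 2 of the 4 genes whose promoter window held the CTCF core motif, and TMBIM6 lay under a CTCF peak that ran on into a normoxia CTCF peak. Each window runs from 250 bases before to 50 bases after a start, 5′ to 3′, from RefSeq on GRCh38.p14. Capitals mark ACGTG (the core of the hypoxia response element), GGAAGT (the core bound by ETS factors) and a core of the CTCF motif, each searched on both strands. A match on the other strand is printed as its reverse complement, and the E-box CACGTG always holds the hypoxia core.
MXI1 promoter, chr10:110207355-110207654, plus strand: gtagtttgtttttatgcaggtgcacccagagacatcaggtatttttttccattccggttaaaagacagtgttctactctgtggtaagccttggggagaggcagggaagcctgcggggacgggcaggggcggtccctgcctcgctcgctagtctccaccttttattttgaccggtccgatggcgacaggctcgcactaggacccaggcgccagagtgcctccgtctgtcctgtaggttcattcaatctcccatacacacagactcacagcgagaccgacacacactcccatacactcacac
ETAA1 promoter, chr2:67397083-67397382, plus strand: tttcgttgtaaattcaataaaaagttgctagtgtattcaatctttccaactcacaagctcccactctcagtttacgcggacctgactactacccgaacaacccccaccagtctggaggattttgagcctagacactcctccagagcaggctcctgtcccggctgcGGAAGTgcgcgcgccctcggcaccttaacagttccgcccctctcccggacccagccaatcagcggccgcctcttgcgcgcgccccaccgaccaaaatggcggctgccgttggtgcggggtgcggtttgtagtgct
WDR43 promoter, chr2:28894417-28894716, plus strand: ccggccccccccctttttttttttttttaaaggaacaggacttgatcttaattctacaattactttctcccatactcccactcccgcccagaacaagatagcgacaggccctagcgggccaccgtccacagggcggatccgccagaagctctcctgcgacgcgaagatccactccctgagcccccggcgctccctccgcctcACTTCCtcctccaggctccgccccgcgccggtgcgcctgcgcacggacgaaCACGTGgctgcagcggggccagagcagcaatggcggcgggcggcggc
BUB1B promoter, chr15:40160819-40161118, plus strand: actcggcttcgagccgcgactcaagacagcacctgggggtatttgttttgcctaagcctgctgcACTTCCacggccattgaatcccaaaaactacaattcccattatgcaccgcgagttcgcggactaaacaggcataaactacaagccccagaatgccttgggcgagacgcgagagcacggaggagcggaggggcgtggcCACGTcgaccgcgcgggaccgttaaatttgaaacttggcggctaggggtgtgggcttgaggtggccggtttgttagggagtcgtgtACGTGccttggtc
CIAO2B promoter, chr16:66934353-66934652, minus strand: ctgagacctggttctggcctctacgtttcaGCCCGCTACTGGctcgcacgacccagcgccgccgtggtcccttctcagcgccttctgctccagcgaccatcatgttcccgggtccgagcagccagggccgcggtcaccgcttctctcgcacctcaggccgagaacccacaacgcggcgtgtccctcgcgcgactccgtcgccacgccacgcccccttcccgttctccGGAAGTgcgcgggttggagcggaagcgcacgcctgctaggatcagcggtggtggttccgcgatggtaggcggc
TBCB promoter, chr19:36114717-36115016, plus strand: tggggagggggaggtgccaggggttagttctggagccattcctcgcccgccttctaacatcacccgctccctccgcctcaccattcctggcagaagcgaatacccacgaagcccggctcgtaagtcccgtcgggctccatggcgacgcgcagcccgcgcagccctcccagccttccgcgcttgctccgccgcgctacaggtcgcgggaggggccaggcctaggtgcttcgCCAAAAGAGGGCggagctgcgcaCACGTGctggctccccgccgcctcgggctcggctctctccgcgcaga
TMBIM6 promoter, chr12:49741619-49741918, plus strand: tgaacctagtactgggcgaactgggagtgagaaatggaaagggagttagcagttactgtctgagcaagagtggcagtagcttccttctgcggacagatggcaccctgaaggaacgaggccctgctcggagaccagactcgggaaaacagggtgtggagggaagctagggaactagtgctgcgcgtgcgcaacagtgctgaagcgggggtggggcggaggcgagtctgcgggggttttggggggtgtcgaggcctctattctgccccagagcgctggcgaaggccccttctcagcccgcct
The MXI1 and TMBIM6 windows held none of these motifs. The ZHX2 summit lay 2 bp from the MXI1 start, 49 bp inside ETAA1 and WDR43, and 28 bp inside BUB1B. In BUB1B the letters of ACGTG occurred at separate places and in WDR43 as one E-box.

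Whether the sites gained CTCF was first checked against the neighbouring peaks, because the rule asked only that the ZHX2 peak itself was free of normoxia CTCF. At 459 sites (69.7%) every overlapping hypoxia CTCF peak was hypoxia-only, and at the other 200 (30.3%) a CTCF peak under the site ran on to overlap a normoxia CTCF peak beside it. Those 200 sites lay on a part of a CTCF peak that the normoxia list did not cover, at a CTCF locus found in both conditions. Across the whole lists 72.6% of hypoxia ZHX2 peaks and 6.96% of hypoxia CTCF peaks were hypoxia-only. The lists were unlike in size, with 32343 ZHX2 peaks in hypoxia and 14586 in normoxia, and 77334 and 88248 CTCF peaks. The part of list size in these shares was not tested. The 660 CTCF peaks at the sites included 460 of the 5382 hypoxia-only ones (8.55%). The label of a gain of both proteins therefore held, in the sense of peak calls, for the 459, and the name hypoxia-only ZHX2-CTCF sites is used for all 659.

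The nearest normoxia CTCF peak was close by at most sites. It lay a median of 738 bp away, within 1 kb at 346 sites (52.5%) and within 100 bp at 116 (17.6%). For the 459 sites on hypoxia-only CTCF peaks the median was 3176 bp, and 146 (31.8%) had one within 1 kb. Normoxia ZHX2 peaks were farther off, at a median of 34264 bp, with 84 sites (12.7%) within 1 kb. The normoxia ZHX2 list is also the shorter, with 14586 peaks against 88248 for CTCF. Distances are not given for other classes of peaks, so the contrast cannot be called particular to the sites. In all 361 sites (54.8%) lay within 1 kb of a normoxia peak of either protein, and 298 lay farther from both.

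**Figure D1:**
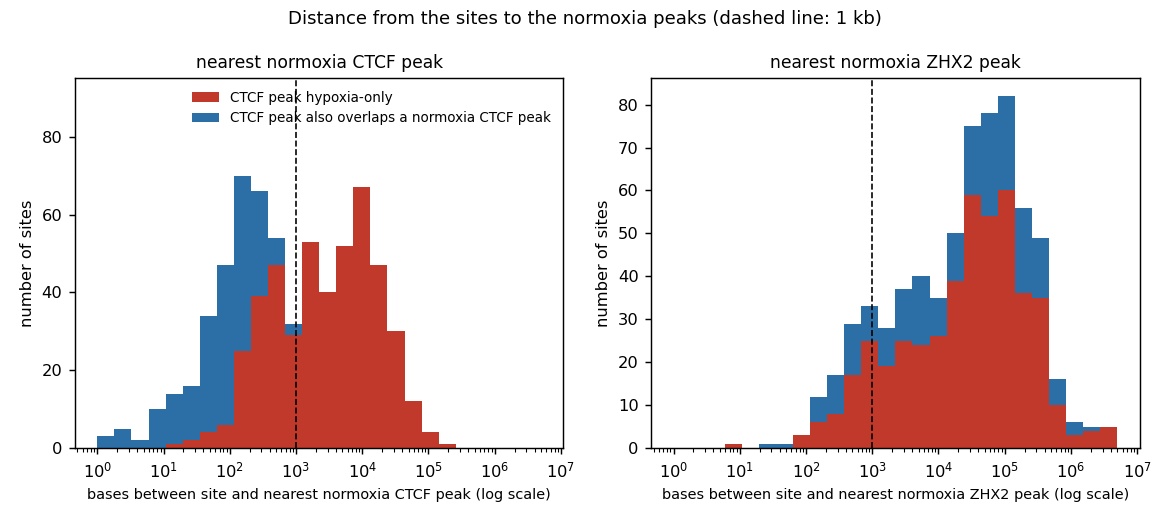
Number of sites by the bases between the site and the nearest normoxia CTCF peak (left) or normoxia ZHX2 peak (right), on horizontal log axes, with sites on hypoxia-only CTCF peaks in red and those whose CTCF peak also overlaps a normoxia CTCF peak stacked in blue. All 200 blue sites lie within 1 kb of normoxia CTCF, while most distances to normoxia ZHX2 exceed 1 kb.

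At the edge of the rule 21 sites had at most 10 bases between them and a normoxia peak. ABHD4 (chromosome 14, 22598140 to 22598431) and ETNPPL were 1 base away from one, with ZHX2 folds of 3.75 and 4.26. Sites that shared at most 10 bases with their hypoxia CTCF peak numbered 14, among them FGFR2 and FBXO27 with 2 bases each. The 14 are not separate from the 21, as a site on chromosome 9 (131395933 to 131396149) was in both sets. Just outside were 22 hypoxia ZHX2 peaks that shared at most 10 bases with a normoxia CTCF peak, such as STMN1, SFSWAP and DDTL with 1 base each and ZHX2 folds of 3.29, 1.98 and 3.69. The ZHX2 folds of the 5 peaks nearest to the edge were 1.98 to 4.26 inside and 1.98 to 3.93 outside.

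The heights of the peaks, which the choice of sites partly fixes, were ordinary for ZHX2 and low for CTCF. The authors' fold enrichment of the ZHX2 peak had a median of 3.26 (1.84 to 8.23), and 46.1% of the sites were above the median of the whole hypoxia ZHX2 list, 3.33. The fold of the CTCF peak had a median of 4.26 (2.01 to 378), against 18.99 over the hypoxia CTCF list. Of the 459 sites on hypoxia-only CTCF peaks, 0 reached that list median, and their highest CTCF fold was 9.25. Of the 200 others, 96 (48.0%) were above it. The 459 had a median CTCF fold of 3.90, and hypoxia-only CTCF peaks without ZHX2 had one of 4.40, so low CTCF folds were found at the hypoxia-only CTCF peaks with and without ZHX2.

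**Figure D2:**
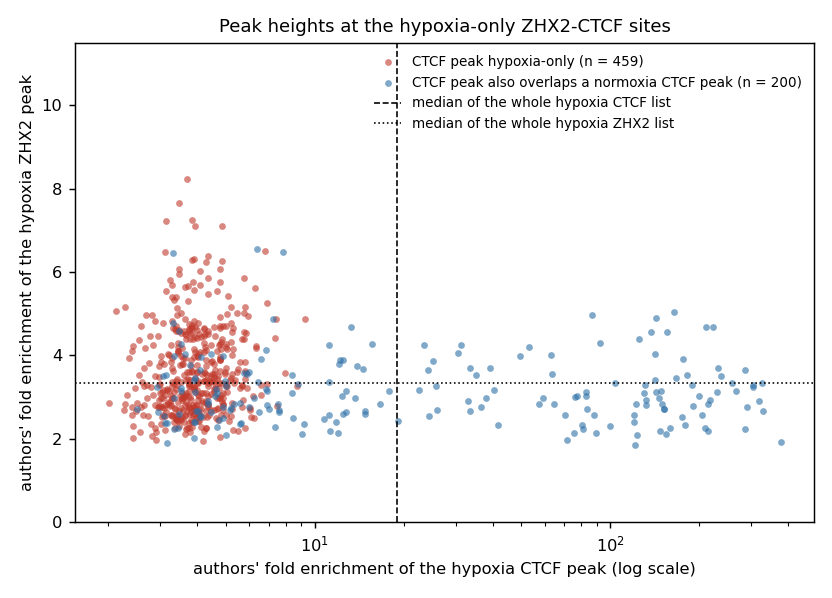
Authors' fold enrichment of the hypoxia ZHX2 peak (vertical axis) against that of the hypoxia CTCF peak (horizontal log axis), 1 point per site, with lines at the medians of the whole lists. The 459 red sites all lie at a CTCF fold of 9.25 or below, and the 200 blue sites spread up to 378.

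The ZHX2 peaks had a median width of 349 bp, against 350 bp over the hypoxia ZHX2 list and 304 bp over all hypoxia-only ZHX2 peaks. The summits of the ZHX2 and the CTCF peak lay a median of 190 bp apart over all sites, 116 bp at the 459 and 574 bp at the 200. Hypoxia-only ZHX2 peaks at CTCF of both conditions had a median of 126 bp. All hypoxia ZHX2 peaks with a hypoxia CTCF peak had 141 bp, so close summits were not particular to the sites. At 211 sites they were within 100 bp and at 396 within 250 bp. BUB1B had its summits 11 bp apart, MXI1 10 bp and NGLY1 15 bp, while at SNAPC4 they were 850 bp and at HDAC4 478 bp apart.

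H3K27ac had no part in the choice of sites. It was present in both conditions at 577 sites (87.6%, interval 84.8 to 89.9%), against 70.3% of all hypoxia ZHX2 peaks. Hypoxia-only ZHX2 peaks at CTCF peaks of both conditions had 83.8% (83.0 to 84.6%), those at CTCF peaks of normoxia alone 85.7% (83.6 to 87.6%), and those without any CTCF peak 55.3% (54.4 to 56.2%). Hypoxia-only CTCF peaks without ZHX2 had 16.4% (15.3 to 17.5%). The interval of the sites overlapped that of ZHX2 peaks at normoxia-only CTCF. Of the 459 sites on hypoxia-only CTCF peaks 90.2% (87.1 to 92.6%) lay on H3K27ac of both conditions, so hypoxia-only CTCF peaks under hypoxia-only ZHX2 and those without ZHX2 stood at opposite ends of the range.

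H3K27ac that appeared in hypoxia alone was rare. It covered 14 sites (2.12%, 1.27 to 3.53%), against 2.64% of all hypoxia ZHX2 peaks. At gene ends these were C1orf21 (chromosome 1, 184387870 to 184388249, ZHX2 fold 5.63), the potassium channel gene KCNH2, the kinase gene PRKCA and PPFIA4, with H3K27ac folds of 3.36 to 8.96 in hypoxia. This holds for the site and not for the whole gene: elsewhere at their ends C1orf21, PRKCA and PPFIA4 had normoxia H3K27ac peaks with folds of 3.72, 3.87 and 6.49, and KCNH2 had none. The 10 others lay away from gene ends, 1 of them with the transcription factor gene JUN as its nearest gene and 1 with CUL2, a scaffold of the VHL ubiquitin ligase. The nearest gene is named only for position. H3K27ac of normoxia alone covered 3 sites (0.455%), with TRIM27, C6orf58 and TPSAB1 as nearest genes, against 1.13% of all hypoxia ZHX2 peaks. No H3K27ac peak covered 65 sites (9.86%, 7.81 to 12.4%), against 25.9%. The acetylated regions at the sites were tall beside the medians of their lists. Folds of H3K27ac at other classes of ZHX2 peaks were not taken, so this cannot be called particular to the sites. The H3K27ac fold at the sites had a median of 14.95 in hypoxia, where the whole list had 4.39, and 15.5 in normoxia, where the list had 5.09.

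The Flag lists came from other samples than the ones that chose the sites. PA Flag-ZHX2 peaks overlapped 441 sites (66.9%, 63.2 to 70.4%) and WT Flag-ZHX2 peaks 514 (78.0%, 74.7 to 81.0%), against 44.2% for PA and 54.2% for WT over all hypoxia ZHX2 peaks. Hypoxia-only ZHX2 peaks at CTCF of both conditions had 55.9% (54.8 to 56.9%) for PA and 68.1% (67.1 to 69.1%) for WT, and those without CTCF 23.8% and 33.0% in the same order. Both forms were found at 437 sites (66.3%, against 43.6% of all ZHX2 peaks), PA alone at 4 (0.607%, against 0.606%), WT alone at 77 (11.7%, against 10.6%) and neither at 141 (21.4%, against 45.2%). The shares with WT alone and PA alone were near those of all ZHX2 peaks. The 2 Flag lists were not made independently of each other. Of the PA peaks 15163 (94.7%) had the same start and end as a WT peak, and of the remaining 856 PA peaks 0 overlapped a WT peak. Presence in both is therefore a statement about called regions, and no height is given for either form.

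Acetylation and position were also taken one at a time. Among sites on H3K27ac of both conditions 73.8% (70.1 to 77.3%) had PA Flag and 85.1% (82.0 to 87.8%) WT Flag, against 64.4% and 77.3% for hypoxia-only ZHX2 peaks at CTCF of both conditions. ZHX2 peaks present in both conditions reached 74.4% for PA and 83.6% for WT, within the intervals of the sites. At gene ends the sites had 78.8% (74.4 to 82.5%) for PA and 89.8% (86.4 to 92.4%) for WT, against 71.8% and 82.9% for hypoxia-only ZHX2 peaks at CTCF of both conditions and 75.2% and 82.5% for ZHX2 peaks of both conditions. Sites with no H3K27ac peak had PA Flag in 12.3% (6.37 to 22.5%) and WT Flag in 23.1% (14.5 to 34.6%, 15 of 65). Without H3K27ac, hypoxia-only ZHX2 peaks at CTCF of both conditions had 9.03% for PA and 16.3% for WT. ZHX2 peaks of both conditions had 14.6% and 19.8%. All 4 values lay within the intervals of the sites. Over all hypoxia ZHX2 peaks without H3K27ac the PA share of 6.52% also lay within, and the WT share of 10.3% lay below.

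**Figure D3:**
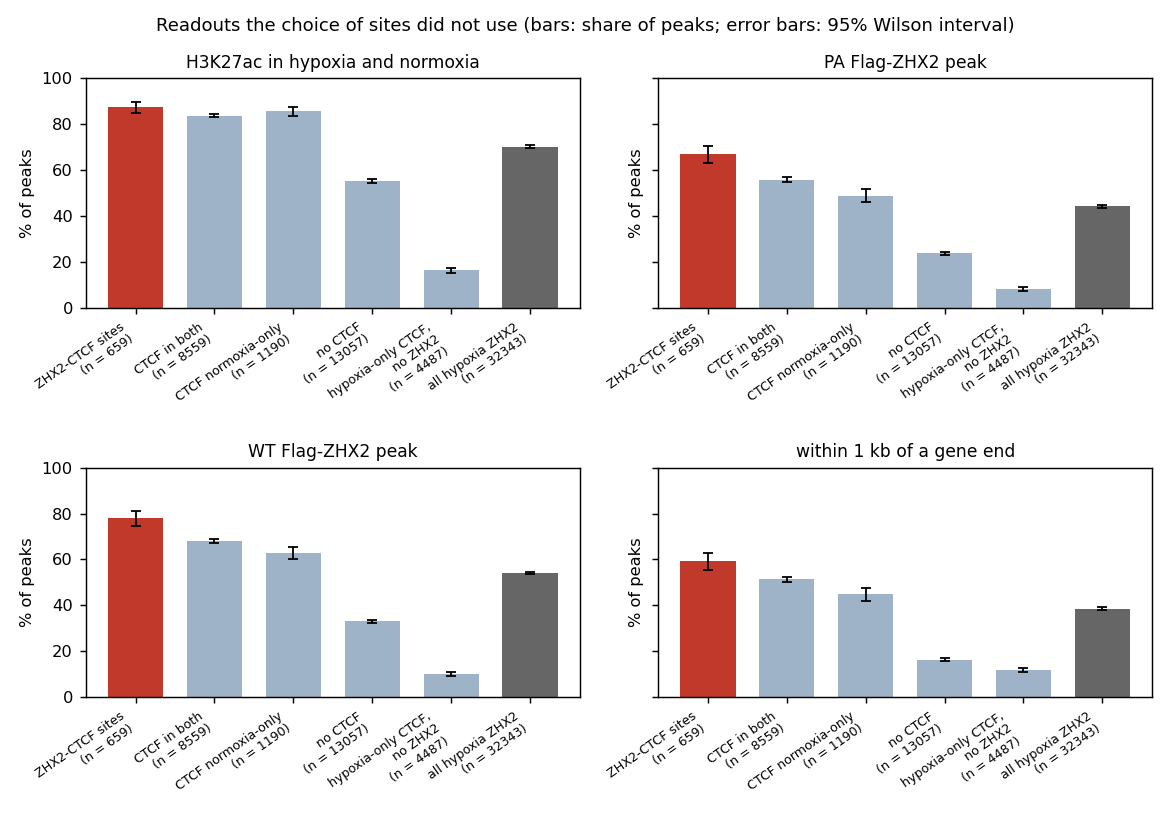
Share of peaks, in percent, on H3K27ac of both conditions, with a PA Flag-ZHX2 peak, with a WT Flag-ZHX2 peak and within 1 kb of a protein-coding gene end, for the 659 sites (red), 4 other classes of peaks and all hypoxia ZHX2 peaks (grey). Bars start at 0 and error bars are 95% Wilson intervals. The sites have the highest bar in each panel, 87.6% for H3K27ac and 59.3% for gene ends, and hypoxia-only CTCF peaks without ZHX2 the lowest.

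The 4 sites with PA Flag alone lay away from gene ends, with SCP2, C6orf58, NTMT1 with C9orf50, and OTOR as nearest genes. The 77 with WT Flag alone included 43 at gene ends. GNAO1, which encodes a G protein alpha subunit, was the tallest of these with a ZHX2 fold of 8.23, followed by the peptidase gene XPNPEP1 (4.78), C20orf144 (4.59), TRAF3IP1 (4.54), the gluconeogenic enzyme gene FBP1 (4.52) and the histone demethylase gene KDM4B (4.49).

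Among the sites PA Flag and gene ends were more frequent at the taller ZHX2 peaks. In the 165 sites with the lowest ZHX2 fold (1.84 to 2.73) PA Flag overlapped 60.6%, WT Flag 78.8%, and a gene end lay within 1 kb of 53.9%. In the 165 with the highest (4.06 to 8.23) PA Flag overlapped 77.0%, WT Flag 84.2%, and a gene end was near 67.3%. The WT share followed no order, with 72.7% and 76.2% in the sites between. A CTCF peak that reached normoxia CTCF was under 43.6% of the lowest and 13.9% of the highest 165 sites. Width moved with these values, since the median ZHX2 peak was 280 bp wide in the lowest and 484 bp in the highest 165. The part of width in them was not tested.

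The sites lay mainly at gene ends, which pool the starts and the far ends of genes. Within 1 kb of an annotated end of a protein-coding gene there were 391 sites (59.3%, 55.5 to 63.0%), against 38.5% of all hypoxia ZHX2 peaks, 51.4% (50.3 to 52.5%) of hypoxia-only ZHX2 peaks at CTCF of both conditions, 16.3% of those without CTCF and 56.4% (55.4 to 57.4%) of ZHX2 peaks of both conditions. The share of ZHX2 peaks of both conditions lay inside the interval of the sites. Another 149 sites were inside genes and 119 between genes. At gene ends 93.6% of the sites were on H3K27ac of both conditions, inside genes 83.2% and between genes 73.1%. WT Flag peaks covered 56.3% of the sites between genes.

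Around starts the sites were symmetric. Leaving out chromosome 8, for which no start sites were used, the ZHX2 summit was within 1 kb of a protein-coding start at 339 of 636 sites (53.3%, 49.4 to 57.1%), against 33.5% of all hypoxia ZHX2 peaks. Of the 339, 166 lay upstream and 173 downstream, and the median position was 1 bp from the start. All hypoxia ZHX2 peaks within 1 kb of a start had 5340 upstream and 4997 downstream, with a median of -6 bp. Near symmetry was therefore not particular to the sites. Within 250 bp of a start there were 237 sites (37.3%), against 22.8% of all hypoxia ZHX2 peaks. Starts on both strands under the same peak, as at divergent gene pairs, were found at 27 of 259 promoter sites (10.4%, 7.26 to 14.7%), against 8.46% of all ZHX2 peaks at promoters. Such pairs included ANAPC16 with ASCC1, COPS2 with GALK2, NFKBIB with SIRT2, DNAJB11 with TBCCD1, and DCTN5 with PALB2.

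**Figure D4:**
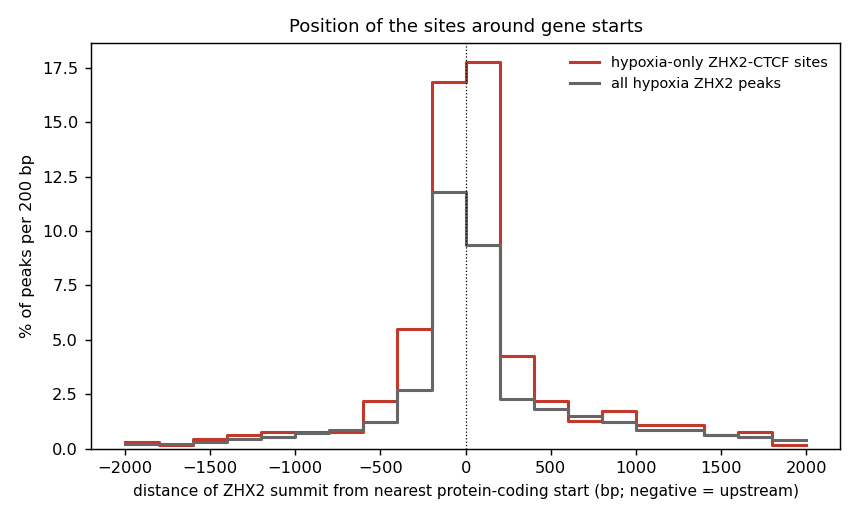
Percent of peaks per 200 bp by the distance of the ZHX2 summit from the nearest protein-coding start, for the sites (red) and all hypoxia ZHX2 peaks (grey), chromosome 8 left out. Both profiles peak at the start, and 37.3% of the sites lie within 250 bp of it, against 22.8% of all hypoxia ZHX2 peaks. ZHX2 peaks of both conditions, not drawn here, had 34.4%.

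By chromosome the sites departed from the ZHX2 list in both directions. Chromosome 19 held 64 sites (9.71%), against 5.61% of the hypoxia ZHX2 peaks and 3.84% of the hypoxia CTCF peaks, and chromosome 22 held 22 (3.34%), against 2.32% of the hypoxia ZHX2 peaks. Shares were below those of the ZHX2 list on chromosome 21 (4 sites, 0.607%, against 1.71%), chromosome X (6 sites, 0.91%, against 1.74%), chromosome 20 (14 sites, 2.12%, against 3.29%) and chromosome 7 (24 sites, 3.64%, against 5.52%). No chromosome was tested. Joining sites within 100 kb of each other gave 607 stretches, 564 of them with 1 site. The largest had 4 sites each, around TOB2 on chromosome 22 (41381014 to 41524533) and within 13.9 kb at STC2 on chromosome 5 (173314182 to 173328059). Stretches of 3 sites included MXI1 on chromosome 10 within 4.05 kb and KRT19 on chromosome 17.

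In all 468 protein-coding genes held a site at an end, 2.36% of the 19821 examined, and 6 of them held 2 or more. Of the 468, 263 (56.2%) also held a normoxia CTCF peak and 84 (17.9%) a normoxia ZHX2 peak elsewhere at their ends, against 61.9% and 29.7% of all protein-coding genes in the same order. The choice of sites partly fixes these lower shares, because by the rule a site overlaps no normoxia peak of either protein. Neither was found at 191 (40.8%), so that in these genes the ends had both proteins in hypoxia and neither in normoxia. The share of all protein-coding genes with neither was not counted. By peak calls H3K27ac was at the ends of 456 (97.4%) in hypoxia and 454 (97.0%) in normoxia, against 65.2% of all protein-coding genes in hypoxia and 64.4% in normoxia. Genes with other classes of ZHX2 peaks were not counted for H3K27ac, so these shares cannot be called particular to the 468.

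The site with the highest ZHX2 fold was at GNAO1 (chromosome 16, 56190989 to 56191584, fold 8.23, CTCF fold 3.71). It had no H3K27ac peak and WT Flag alone. The next was ETAA1, an activator of the ATR kinase at stalled replication forks (chromosome 2, 67397100 to 67398126). Its ZHX2 fold was 7.66 and its CTCF fold 3.47, and it was remote from normoxia binding, with the nearest normoxia CTCF peak 52174 bp and the nearest normoxia ZHX2 peak 1961074 bp away. H3K27ac there had folds of 14.43 in hypoxia and 15.63 in normoxia, so the region was acetylated in both.

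Of the 15 gene-end sites with the highest ZHX2 fold 12 were on hypoxia-only CTCF peaks. ANAPC16, a subunit of the anaphase-promoting complex, shared a site with ASCC1 (ZHX2 fold 7.24), and COPS2, a subunit of the COP9 signalosome, with the kinase gene GALK2 (7.11). NGLY1, which strips glycans from misfolded proteins, shared one with OXSM, an enzyme of mitochondrial fatty acid synthesis (6.48). MCAT, which acts in the same mitochondrial pathway, had a fold of 6.32. BUB1B, which encodes a spindle checkpoint kinase, had 6.27, and WDR43, a ribosome biogenesis gene, 6.24. SLC71A1 had 7.22, PGRMC1, which encodes a haem-binding membrane protein, 6.39, and APBA3 with MRPL54, a mitochondrial ribosomal protein gene, 6.28. CTCF folds at these sites were 3.13 to 4.85. No theme was tested over these genes. The other 3 of the 15, WDR45B, HDAC4 and FOS, lay on CTCF peaks that reached normoxia CTCF, at gaps of 290, 43 and 63 bp.

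MXI1, which encodes an antagonist of MYC and is induced by hypoxia in many cells, held 3 sites. The first lay over its start (chromosome 10, 110207304 to 110207853, ZHX2 fold 7.10, CTCF fold 4.84), and the others about its second start and in its first part, with ZHX2 folds of 5.25 and 3.31. The nearest normoxia CTCF peak was 731 bp from the first site and 197 bp from the second. Before the start a CTCF peak had folds of 39.9 in hypoxia and 33.34 in normoxia, and one between the first and second site had 9.81 in hypoxia and 13.31 in normoxia. In hypoxia a single H3K27ac peak with a fold of 22.73 covered all 3 sites, while in normoxia separate peaks had folds of 4.01 over the start and 7.31 over the other sites. Folds of separately called lists give no test of a change.

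**Figure D5:**
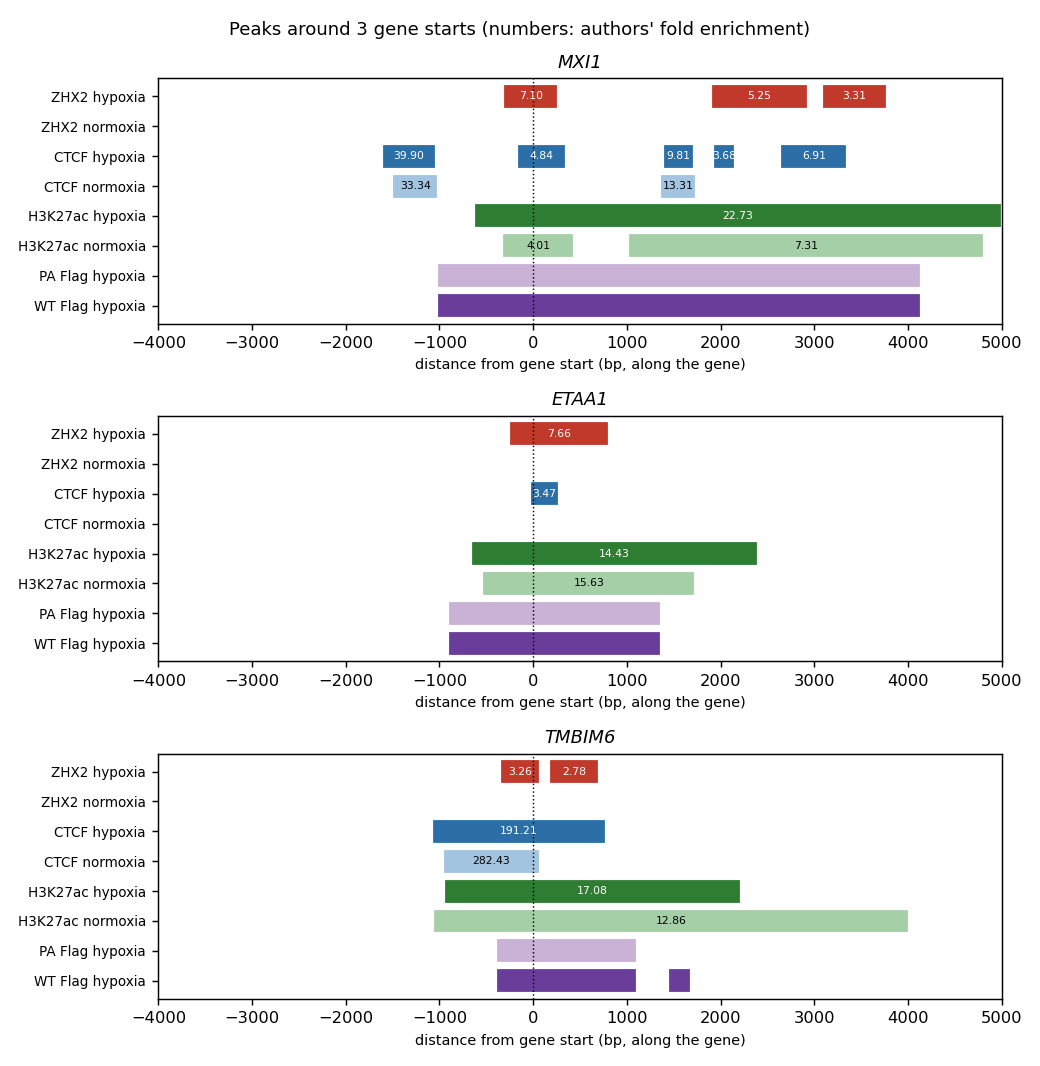
Peaks of the 8 lists around the outermost annotated start of MXI1, ETAA1 and TMBIM6, by distance along the gene in bp, with the authors' fold enrichment on each peak where the list gives one. At MXI1 the 3 ZHX2 peaks have no normoxia ZHX2 peak and lie between and beyond normoxia CTCF peaks, at ETAA1 neither protein has a normoxia peak, and at TMBIM6 the hypoxia CTCF peak (fold 191.21) extends past the normoxia one (fold 282.43) to cover the site with the ZHX2 fold of 2.78.

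The 10 gene-end sites with the tallest CTCF peaks were all on CTCF peaks that reached normoxia. They were SNAPC4, a small nuclear RNA transcription factor gene (chromosome 9, 136399429 to 136399628, CTCF fold 319.69), the RNA polymerase III subunit gene POLR3E (291.06), the ubiquitin ligase gene UBE4B (286.99), the sulfate donor transporter gene SLC35B2 (285.96), the splicing factor gene SF3A2 with PLEKHJ1 (237.98), APC2 (223.6), TMBIM6, an inhibitor of cell death at the endoplasmic reticulum (191.21), the fucosyltransferase gene FUT7 (188.96), ITGA10 (177.15) and SLC22A23 (166.61). Their ZHX2 folds were 2.23 to 4.68, and normoxia CTCF lay 54 to 475 bp away. At the ends of the same genes the tallest normoxia CTCF peak had folds of 270.58 to 383.23, so these were strong CTCF loci in both conditions.

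Away from gene ends the tallest ZHX2 peaks lay inside PTBP1, a splicing regulator gene (chromosome 19, 800429 to 800940, ZHX2 fold 6.51), before GATAD2A (5.85), and inside ARHGAP23 (5.84), RPS3 (5.68) and PIEZO1 (5.66). HACL2 (5.48), HOXB3 (5.31), the second MXI1 site (5.25), TBC1D4 (5.17) and MIDEAS (5.07) followed. All 10 were on hypoxia-only CTCF peaks with H3K27ac of both conditions, and 8 had both Flag forms, ARHGAP23 and HOXB3 neither. ARHGAP23 and the second MXI1 site were at internal starts, with the summit 77 and 239 bp upstream.

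Of 285 distinct genes in 14 lists of pathways and markers 18 held a site, beside the 2.36% of all protein-coding genes. No list was tested. In each list with a site most members held a hypoxia ZHX2 peak, such as 28 of 36 hypoxia-induced and 18 of 20 immediate early genes. Among hypoxia-induced genes 3 of 36 held a site, which were MXI1, KDM4B (ZHX2 fold 4.49) and STC2, a secreted glycoprotein gene (4.44 at the tallest of its 4 sites). The summit of that STC2 site lay 12558 bp from the nearest start. MXI1, KDM4B and 3 of the 4 STC2 sites were on hypoxia-only CTCF peaks, and the STC2 site with a ZHX2 fold of 2.37 was on a CTCF peak that reached normoxia CTCF. Of 13 genes for hypoxia signalling proteins or ZHX family members 0 held one. ZHX2 itself and CTCF carried peaks of both proteins in both conditions. Glycolysis (17 genes), cell cycle (26), invasion and matrix (28), basal or myoepithelial (11) and immune or stromal markers (16) had 0 as well. Of their members 12, 17, 18, 4 and 4 held a hypoxia ZHX2 peak, as did 56.3% of all protein-coding genes. Lists of these sizes are too small for 0 to be told apart from the 2.36% of all protein-coding genes.

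Heat shock and mitochondrial chaperone genes had 5 of 24 members with a site (20.8%), against 2.36% of all protein-coding genes. These were CLPP, a mitochondrial protease subunit (at its border with ACER1, ZHX2 fold 5.82), the inducible chaperone HSPA1A with HSPA1L (4.58) and the small heat shock protein HSPB1 (4.01). The transcription factor HSF2 (3.64) and the chaperonin subunit TCP1 with MRPL18 (3.34) were the others. At HSPB1 the ZHX2 summit lay 2452 bp downstream of the nearest start. Of the 24 genes, 20 held a hypoxia ZHX2 peak and 24 hypoxia H3K27ac, against 56.3% and 65.2% of all protein-coding genes. This list was not tested. HSPD1 and HSPE1, the mitochondrial chaperonin genes, held peaks of both proteins in both conditions and no site. HSPA1A and its near-identical copy HSPA1B can share reads, so its peaks are uncertain. HSF2 was on a CTCF peak that reached normoxia CTCF (fold 24.18), and the other 4 were on hypoxia-only ones.

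Among stress genes DNAJB11, an endoplasmic reticulum chaperone, was the single member of 25 unfolded protein response genes (ZHX2 fold 3.26, on the start it shares with TBCCD1). XBP1 and EIF2AK3 had CTCF at their ends in hypoxia and not in normoxia but no site. XBP1 held ZHX2 at its ends with folds of 5.79 in hypoxia and 10.06 in normoxia, and EIF2AK3 had no ZHX2 peak in either list. Of 22 ATF4 genes NUPR1 (5.54, at a transcript border and with neither Flag form) and the amino acid transporter subunit SLC3A2 (1.95, among the lowest) held one. Luminal identity genes had 3 of 20 (15.0%), against 2.36% of all protein-coding genes, and 17 of the 20 held a hypoxia ZHX2 peak. TFAP2A, an AP-2 factor of mammary epithelium (5.76), had the tallest acetylation among the named sites, with H3K27ac folds of 45.19 in hypoxia and 39.88 in normoxia. TFAP2C had 3.23 and KRT19, the luminal keratin, 3.22. FOS (6.45) and JUNB (2.29) were the 2 of 20 immediate early genes and both were on CTCF peaks that reached normoxia CTCF, so 0 were left among the 459. ZNF143, a promoter-binding zinc finger protein also found at loop anchors, was the single one of 20 looping genes (5.43), and NFKBIB, an inhibitor of NF-kappaB, of 20 NF-kappaB genes (3.96). The splicing factor gene TFIP11 had a fold of 3.26 with a CTCF fold of 8.69, and GNB1 and PFKFB4 held no site. Micro-RNA genes lay inside 2 sites, MIR933 at ATF2 and MIR4470 near ASPH, both with H3K27ac in both conditions.

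Promoter sequence was read in 322 RefSeq windows of 287 genes that a site touched, beside all 22132 windows of protein-coding genes. Windows of the same gene overlap, and a match is a description of letters, not of binding. GGAAGT occurred in 107 windows (33.2%, 28.3 to 38.5%), against 23.9% of all windows, 25.1% (24.3 to 26.0%) at all hypoxia ZHX2 peaks, 24.1% (22.7 to 25.5%) at CTCF of both conditions and 31.8% (29.3 to 34.5%) at hypoxia-only ZHX2 peaks without CTCF. In the 263 windows at sites on hypoxia-only CTCF peaks it was 36.5% (30.9 to 42.5%). With 1 window per gene, an alternative chosen after seeing the data, it was 34.5% of 287, against 24.8% of all.

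The CTCF core motif was rare in these windows. It was in 6 (1.86%, 0.857 to 4.00%), from VILL, CIAO2B, TBCB and DEPDC5, against 2.52% of all windows and 3.63% (3.07 to 4.28%) at hypoxia-only ZHX2 peaks with CTCF of both conditions. The CIAO2B and TBCB windows printed above are 2 of them. The sites on hypoxia-only CTCF peaks had 2.28%. Sequence outside these windows was not read.

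The other motifs were close to the background of ZHX2 promoters or too few to compare. ACGTG was in 90 windows (28.0%, 23.3 to 33.1%), against 23.1% of all windows and 27.5% at all hypoxia ZHX2 peaks. CACGTG was in 10.9%, against 8.34% and 10.5% in the same order, and CCAAT in 36.3%, against 34.6% and 32.4%. TGACGTCA, the cAMP response element, was in 14 (4.35%, 2.61 to 7.16%), among them GNAO1 and ZNF143, against 2.26% and 3.59%. The heat shock element was in 2, of HYPK and PRKD2 (0.621%, against 0.402% of all windows). The endoplasmic reticulum stress element and the ATF4 site TGATGCAAT were in 0, which allows up to 1.18% each by the Wilson interval, against 0.104% and 0.172% of all windows. The GC content of the windows had a median of 64.7%, against 62.3% for all windows and 68.0% at all hypoxia ZHX2 peaks.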

How the data were processed

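T47D ChIP-seq samples were grouped by title and antibody. The authors trimmed, aligned and called peaks with cutadapt, Bowtie2 and MACS2 on GRCh38 (hg38), per the submitters' processing notes, with no versions named. They deposited 1 peak list for each group of 2 samples. Pooling, use of inputs and read depth are not given in the sources used here. The precision of a single peak is therefore unknown. Deposited columns are the score, the fold enrichment (a ratio over background) and −log10 q of each peak (a −log10 p column was not used), and the Flag lists hold positions alone. The lowest deposited −log10 q was 1.30 in the ZHX2 lists, 5.09 in hypoxia and 5.00 in normoxia for CTCF. These values served only to describe or filter peaks within a list. A peak was set against its neighbours by overlap of at least 1 bp on chromosomes 1 to 22 and X, and against the ends of 19821 protein-coding genes (RefSeq, GRCh38.p14) within 1 kb. The gene table names no exons, so exons and introns were not read. Of the 468 genes with a site 395 had a promoter window. Motif starts and promoter windows of chromosome 8 were not used here. Intervals are 95% Wilson intervals (scipy 1.17.1, Python 3.11.15). No test was made, since no list has replicate values, and the exact overlap steps were tested on simulated data.

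The sites, gene lists and alternatives were chosen with earlier results of these data known. Genes were named by rule: at gene ends the 15 highest ZHX2 folds, the 10 highest CTCF folds, 10 with WT Flag, 5 with H3K27ac of hypoxia alone, up to 4 per gene list and 10 single genes. Away from ends the 10 highest ZHX2 folds, the 5 largest stretches (1 of them is not reported here) and the peaks at the edge of the rule were named. Sites with 1 Flag form alone, divergent pairs, H3K27ac of 1 condition away from ends, TCP1, micro-RNA hosts and promoters with rare motifs were named after their values were seen.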

Additional observations from a re-analysis of the deposited data

How the results depend on the processing

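No paired analysis was possible because each group has a single peak list with no values per replicate, and for the same reason no replicate could be left out. Under 7 alternatives that change which sites enter, the number of sites fell to 322 with the upper 50% of ZHX2 peaks by score and to 298 at 1 kb or more from every normoxia peak of either protein, and lay within 1.5 times of 659 in the others (459 to 866). With the upper 50% by score H3K27ac of both conditions came to 93.8%, of hypoxia alone to 1.24%, no H3K27ac to 4.66%, PA Flag to 75.5%, WT Flag to 84.5%, gene ends to 65.5% and the median summit distance to 160 bp. With hypoxia-only CTCF peaks alone these were 90.2% for H3K27ac of both conditions, 7.63% for none, 71.5% for PA, 81.7% for WT, 63.2% for gene ends and 116 bp. At a −log10 q of at least 5 they were 90.4% for H3K27ac of both conditions, 7.39% for none, 72.4% for PA, 81.3% for WT and 160 bp. With peaks reduced to 200 bp they were 91.3% for H3K27ac of both conditions, 6.24% for none, 63.6% for gene ends and 101 bp. At 1 kb or more from normoxia peaks they were 89.9% for H3K27ac of both conditions, 64.1% for gene ends and 113 bp, and GGAAGT was in 40.8% of windows, an alternative chosen after seeing the data. With a 3 kb window 68.9% of sites were near a gene end, and immediate early genes with a site came to 4 and NF-kappaB genes to 2. Of 116 values under alternatives 32 moved in these ways. The causes were not tested. The peak lists give no depth, so a peak missing from a normoxia list is a peak not called there, and binding below its threshold cannot be told apart from none.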
